A study of Mus musculus with 12 samples.

Results

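*Lilr4b* and *Lilrb4a* are neighboring, closely similar receptor genes on mouse chromosome 10, and they are 2 of the 35521 genes to which the reads of 12 bulk RNA-Seq libraries were assigned. *Lilr4b* was chosen by its estimated reads and TPM, which were raised over parental cells in 4T1 mammary carcinoma cells cocultured with either of 2 kinds of Gr1+CD11b+ cells, and *Lilrb4a* was added as its similar neighbor. All fold changes of both genes against parental 4T1 cells are therefore given as a description without a test, and tests on these 2 genes are limited to the comparison of both primed groups with each other. The study asked how Gr1+CD11b+ cells from a tumor, as opposed to those from a spleen, change the expression program of 4T1 cells. The 4T1 line was derived from a mammary carcinoma of a BALB/c mouse. In Tu-Gr1+CD11b+–primed 4T1 (Tu-primed), the cancer cells were cocultured for 48 hours with cells isolated from tumors of 4T1 tumor-bearing BALB/c mice by magnetic separation for Gr1. In Spl-Gr1+CD11b+–primed 4T1 (Spl-primed), the Gr1+ cells came from the spleens of such mice. A membrane with 0.4 μm pores separated both kinds of cells, with the 4T1 cells in the lower well and the Gr1+CD11b+ cells above. Per the labels, donor mice were at day 21 of tumor growth, whereas the methods name a later day. Parental 4T1 cells without coculture were the controls, no group carried a genetic alteration named in the labels, and each of the 3 groups had 4 libraries. The labels do not say whether replicates came from separate cultures or from separate mice, so p-values measure the spread between these libraries, which may be technical.

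The leukocyte immunoglobulin-like receptors are surface proteins with immunoglobulin domains, and in the mouse the copies *Lilrb4a* (gp49B) and *Lilr4b* (gp49A) are best known from mast cells and myeloid cells. Receptors of the B type carry immunoreceptor tyrosine-based inhibitory motifs (ITIM) in the cytoplasmic tail, which once phosphorylated recruit the phosphatases SHP-1 (*Ptpn6*), SHP-2 (*Ptpn11*) or SHIP (*Inpp5d*), whereas their paired partners lack these motifs. Integrin αvβ3, fibronectin and apolipoprotein E have been described as ligands of gp49B or of its human counterpart.

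In the GENCODE annotation of GRCm38, *Lilr4b* (ENSMUSG00000112023) lies on the plus strand at chr10:51480632-51486703 and spans 6072 bases. *Lilrb4a* (ENSMUSG00000112148) follows on the same strand at chr10:51490956-51496611, 4252 bases downstream, and spans 5656 bases. A further gene model, *Gm49339* (ENSMUSG00000062593, chr10:51480612-51496613), joins exon 1 of *Lilr4b* to the downstream exons of *Lilrb4a*. Most annotated transcripts of either copy are not protein coding. Of 13 transcripts of *Lilr4b*, 2 are annotated as protein coding, 2 as targets of nonsense-mediated decay, 8 as retained intron and 1 as processed transcript, and of 14 transcripts of *Lilrb4a*, 4 are protein coding, 1 is a decay target and 9 are retained intron. The coding sequences of Lilr4b-201 (912 bases) and Lilrb4a-201 (1008 bases) aligned over 910 bases, of which 874 were identical (96.0%). Likeness was lowest in exon 3, where 17 of 285 bases differed (94.0% identical), and exon 1 had no difference over 55 aligned bases. Introns 1 to 6 were between 95.2% and 97.5% identical. The coding sequences are printed for a stretch of exon 3 in which the copies differ most, with differing bases in capitals. The stretch covers coding bases 151 to 270, at chr10:51481220-51481339 in *Lilr4b* and chr10:51491514-51491633 in *Lilrb4a*, and 11 of its 120 bases differ.
Lilr4b: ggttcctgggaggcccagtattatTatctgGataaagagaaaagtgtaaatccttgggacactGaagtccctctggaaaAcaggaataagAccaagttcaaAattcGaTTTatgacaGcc
Lilrb4a: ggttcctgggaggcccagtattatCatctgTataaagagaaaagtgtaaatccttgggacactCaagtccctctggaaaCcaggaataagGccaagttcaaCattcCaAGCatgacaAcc

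The ends of the coding sequences show which copy carries the inhibitory motif. From coding base 882 onward, *Lilr4b* has a run of 7 cytosines where *Lilrb4a* has 5, and the reading frames part at that point. In *Lilr4b*, 10 codons follow up to the stop, and none of its tail codons matched the ITIM pattern. In *Lilrb4a*, 42 codons follow, with matches that begin at codons 298 and 320 of 335. The ends are printed from coding base 831 to the stop, with the run of cytosines in capitals for *Lilr4b* (exons within chr10:51484536-51485760) and the codons of both motifs in capitals for *Lilrb4a* (exons within chr10:51494812-51496244).
Lilr4b: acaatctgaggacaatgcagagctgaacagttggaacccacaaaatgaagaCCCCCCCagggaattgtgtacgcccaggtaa
Lilrb4a: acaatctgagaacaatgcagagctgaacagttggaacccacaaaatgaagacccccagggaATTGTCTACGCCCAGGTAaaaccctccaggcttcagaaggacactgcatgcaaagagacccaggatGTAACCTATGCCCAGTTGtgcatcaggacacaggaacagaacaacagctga

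These differences set how far short reads can tell the copies apart. Of the 5906 different 31-base words in *Lilr4b* transcripts, 36.7% also occurred in *Lilrb4a*, and 62.8% occurred in no other gene. For *Lilrb4a*, 39.1% of 5553 words were shared with *Lilr4b*, 35.0% with *Gm49339*, and 44.3% were its own. *Gm49339* had 51 words of its own among 2019 (2.5%), and every word of the coding transcripts Lilrb4a-201 and Lilrb4a-212 also occurred in it. No word of the 3 models occurred in any other gene listed in the files. The reference transcripts come from C57BL/6J mice and 4T1 cells from BALB/c, so strain differences within either copy can shift the division of reads between them, which was not tested.

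The promoter window of *Lilr4b* is printed because both copies had the same order of groups in these libraries, and RefSeq (GRCm38.p6) held an entry for 1 of the 2 members. The 250 bases at chr10:51480362-51480611, upstream of the start of *Lilr4b* on the plus strand, are given with 2 motif matches in capitals.
Lilr4b promoter: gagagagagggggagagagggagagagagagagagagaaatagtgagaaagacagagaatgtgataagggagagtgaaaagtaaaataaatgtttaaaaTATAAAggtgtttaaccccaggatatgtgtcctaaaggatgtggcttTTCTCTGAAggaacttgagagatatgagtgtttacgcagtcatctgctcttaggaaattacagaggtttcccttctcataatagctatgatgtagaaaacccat
The first match is TATAAA at position -151 relative to the RefSeq start, a word found in 12.4% of 32851 promoters of the same length on either strand. The second is the STAT-type palindrome TTCNNNGAA at position -104, found in 7.0% of promoters. The letters of the AP-1 motif (TGANTCA), the C/EBP-ATF composite (TGATGNAA), the CRE (TGACGTCA), the C/EBP motif (TTGCNNAA), the Sp1-type motif (CCGCCC) and an interferon-type element were not in this window. They occurred in 6.7%, 3.5%, 1.5%, 9.6%, 32.7% and 3.0% of promoters, respectively.

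The libraries held from 24566183 to 31637755 assigned reads, with a median of 27277534. At the smallest total, a count of 0 allows up to 3 reads, or 0.122 CPM. All 8 mammary epithelial markers examined were detected in these libraries, with summed reads between 51920 and 99805.

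*Lilr4b* was highest in Tu-primed 4T1, intermediate in Spl-primed 4T1 and lowest in parental 4T1 cells, and it was present in parental cells before any coculture. The estimated reads of *Lilr4b* were 2871.9, 2774.3, 3231.9 and 2302.2 in the 4 Tu-primed libraries. They were 1246.5, 1107.1, 1168.7 and 1435.3 in the 4 Spl-primed libraries, and 443.3, 414.8, 365.2 and 316.1 in the 4 parental libraries. Every library of a group lay apart from those of the other groups. On the TPM scale, which corrects for transcript length and library size, *Lilr4b* reached 79.6, 84.0, 91.5 and 69.8 in Tu-primed 4T1. The TPM values were 29.8, 30.8, 32.2 and 41.0 in Spl-primed 4T1 and 15.2, 16.0, 13.8 and 10.3 in parental 4T1. The groups did not overlap on this scale either. In edgeR's quasi-likelihood test, with p-values adjusted after Benjamini and Hochberg over 12555 genes, *Lilr4b* was higher in Tu-primed than in Spl-primed 4T1 by a log2 fold change of 1.23 ± 0.11 (SE, adjusted p = 1.7e-05). With protein coding transcripts only, the difference was 0.45, without a call (adjusted p = 0.625).

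*Lilrb4a* followed the same order at a lower level, in reads summed over all its transcripts. Retained intron transcripts held 91.7% of these reads in Tu-primed and 93.6% in Spl-primed 4T1. Its full-length coding transcript with both ITIM, Lilrb4a-201, was listed at 0 in every library. The estimated reads of *Lilrb4a* were 302.0, 338.1, 381.0 and 284.4 in Tu-primed 4T1. They were 195.0, 150.8, 145.6 and 170.3 in Spl-primed 4T1, and 35.0, 39.0, 62.8 and 28.1 in parental 4T1. On this scale too, no library of one group reached the range of another. Mean TPM of *Lilrb4a* was 9.66 ± 1.08 (SD, n = 4) in Tu-primed, 4.35 ± 0.51 in Spl-primed and 1.83 ± 1.14 in parental 4T1. *Lilrb4a* was higher in Tu-primed than in Spl-primed 4T1 by a log2 fold change of 1.04 ± 0.17 (edgeR's quasi-likelihood test, adjusted p = 0.0017). Thus 2 of 2 members were called higher in this comparison, in which 4.66% of the tested genes were called higher and 2.97% lower. The call for *Lilrb4a* was lost in limma on log2(TPM + 0.1), with a log2 fold change of 1.13 (adjusted p = 0.1), and on the deposited normalized counts, with 1.09 (adjusted p = 0.0738), and the adjusted p lay between 9.75e-08 and 0.1 over all alternatives tried.

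**Figure D1:**
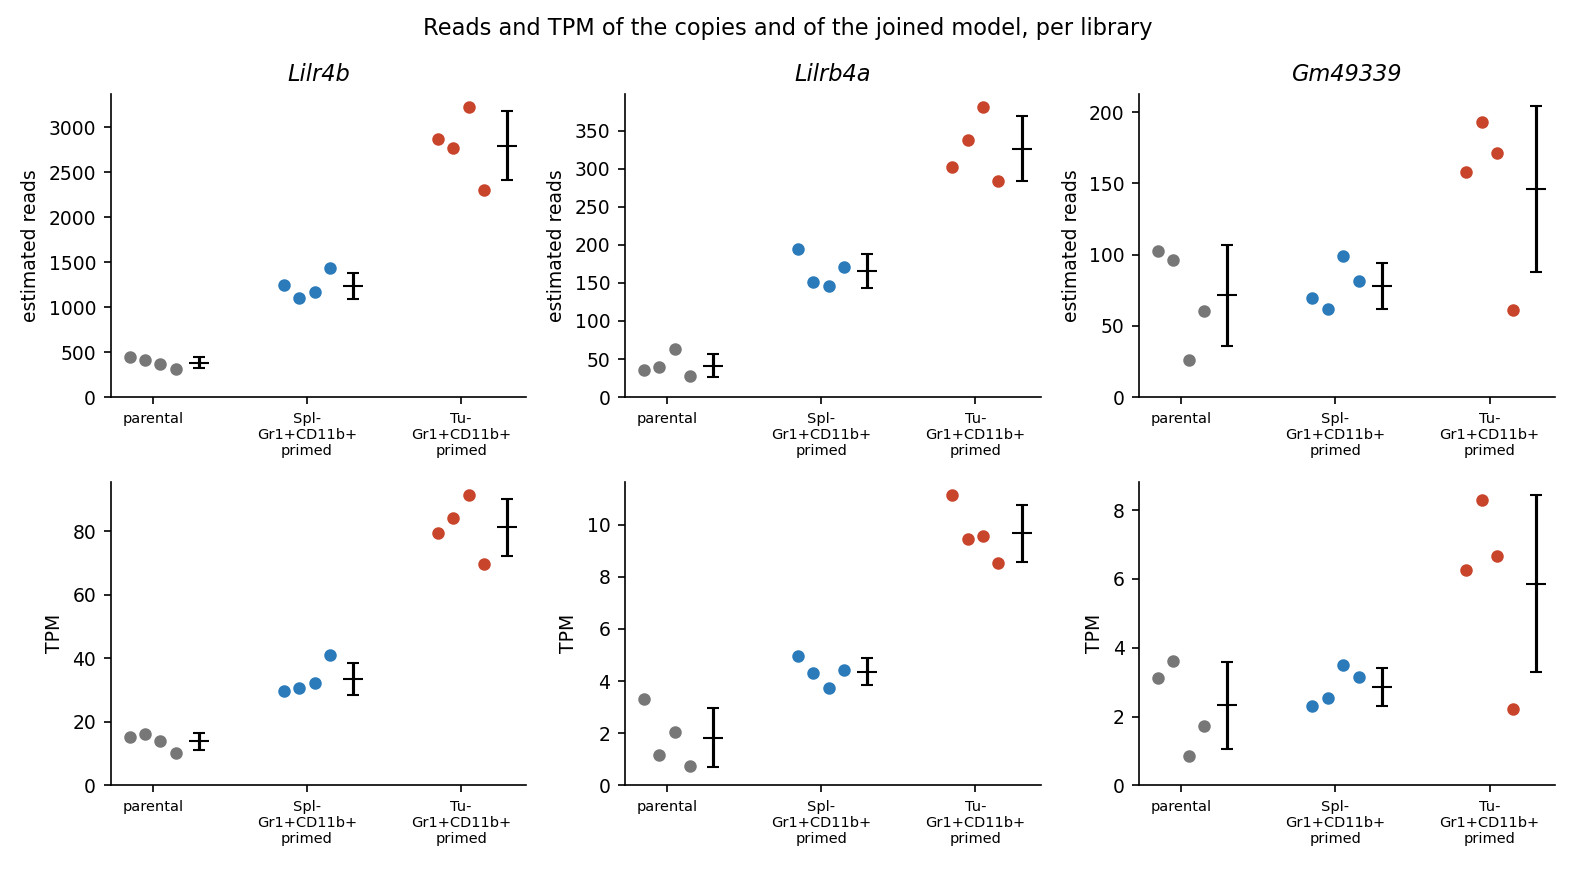
Estimated reads (top) and TPM (bottom) of *Lilr4b*, *Lilrb4a* and the joined model *Gm49339*. Each point is a library, and the bars give the mean ± SD of 4 libraries per group. Both copies are ordered parental, Spl-primed, Tu-primed without overlap, whereas the points of *Gm49339* overlap.

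The joined model *Gm49339*, which can take reads of either copy, had 158.1, 193.5, 171.1 and 61.5 estimated reads in Tu-primed 4T1, 77.93 ± 16.03 (SD, n = 4) in Spl-primed 4T1 and 71.45 ± 35.4 in parental 4T1. Its values overlapped between groups, and the comparison of both primed groups did not pass the threshold in edgeR's quasi-likelihood test (log2 fold change 0.97 ± 0.37, adjusted p = 0.13). Against parental 4T1, the log2 fold change of *Gm49339* was 0.94 ± 0.37 in Tu-primed and -0.03 ± 0.38 in Spl-primed cells. These 2 values are a description, since *Gm49339* can take reads of the gene chosen by that contrast. Reads that fit several transcripts are divided by the quantification in fractions. In 12 of 12 libraries the estimates of the 3 models added up to a whole number of reads within 0.005, while those of *Lilr4b* and *Lilrb4a* alone did so in 0 of 12. In single transcripts, none of 135 values above 0 for *Lilr4b* and none of 64 for *Lilrb4a* was whole within 0.0005, against 11.4% of the 578379 values above 0 over all transcripts. The sum over both copies does not depend on how reads are divided between them, apart from those given to *Gm49339*. It was higher in Tu-primed than in Spl-primed 4T1 by a log2 fold change of 1.21 (edgeR's quasi-likelihood test, adjusted p = 1.78e-05). With protein coding transcripts only, the sum differed by 0.46, without a call (adjusted p = 0.458).

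The share that *Lilrb4a* held of the reads of both copies overlapped between all groups. It was 9.52%, 10.86%, 10.55% and 10.99% in the Tu-primed libraries and 13.53%, 11.99%, 11.08% and 10.61% in the Spl-primed libraries. In parental libraries it was 7.33%, 8.59%, 14.7% and 8.17%. Without *Gm49339* no group stood apart, and the difference of -1.32 percentage points between the primed groups did not pass a two-sided exact permutation test (p = 0.1143, adjusted over 6 shares 0.1714, smallest possible p = 0.0286), and was -0.74 without Spl-primed replicate 1. With *Gm49339* counted to *Lilrb4a*, the share was 14.4% in Tu-primed, 16.5% in Spl-primed and 22.5% in parental 4T1, and the difference between the primed groups was -2.08 percentage points (exact permutation p = 0.0571, adjusted 0.1142). Counted in this way, the parental libraries, at 19.6% to 24.6%, lay above all primed libraries, at 13.1% to 17.5%.

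Against parental 4T1, the size of the difference depended on whether transcript length was taken into account. From estimated reads, the log2 fold change of *Lilr4b* was 2.75 ± 0.12 in Tu-primed and 1.52 ± 0.12 in Spl-primed 4T1, and that of *Lilrb4a* was 2.86 ± 0.20 and 1.82 ± 0.21. With the average transcript length as an offset, these values were 2.10 and 0.88 for *Lilr4b* and 2.08 and 1.00 for *Lilrb4a*. The mean effective length behind the reads of *Lilr4b* was 1690.55 bases in Tu-primed, 1691.3 bases in Spl-primed and 1086.32 bases in parental 4T1. Reads thus came from longer transcripts in primed cells. On log2(TPM + 1), the median log2 fold change over 12555 genes against parental 4T1 was 0.40 in Tu-primed and 0.34 in Spl-primed cells. Single genes also went down. On this scale *Lilr4b* was higher by 2.48 and 1.22. The TPM levels of primed and parental cells given here are not corrected for this shift of the median. In the edgeR fits the median was 0.02 in both comparisons, with the length offset and without it. The library scaling of these fits holds the median near 0, so it does not show whether the offset removed the shift. As ratios of group means, *Lilr4b* in Tu-primed against parental 4T1 was 7.26 on estimated reads, 5.87 on TPM and 4.22 on the deposited normalized counts. In Spl-primed against parental 4T1 the ratio was 3.22, 2.42 and 1.81. For *Lilrb4a* the deposited normalized counts lay between 34.5 and 120.3 in parental and between 114.7 and 146.4 in Spl-primed libraries, so these groups overlapped on that scale. The highest parental value came from replicate 1, where 8.28 reads on the short coding transcript Lilrb4a-213 gave 2.74 TPM and the mean effective length of the gene was 382.7 bases. Between the primed groups, where effective lengths were alike, the ratio for *Lilr4b* was 2.26 on estimated reads, 2.43 on TPM and 2.34 on the deposited normalized counts.

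**Figure D2:**
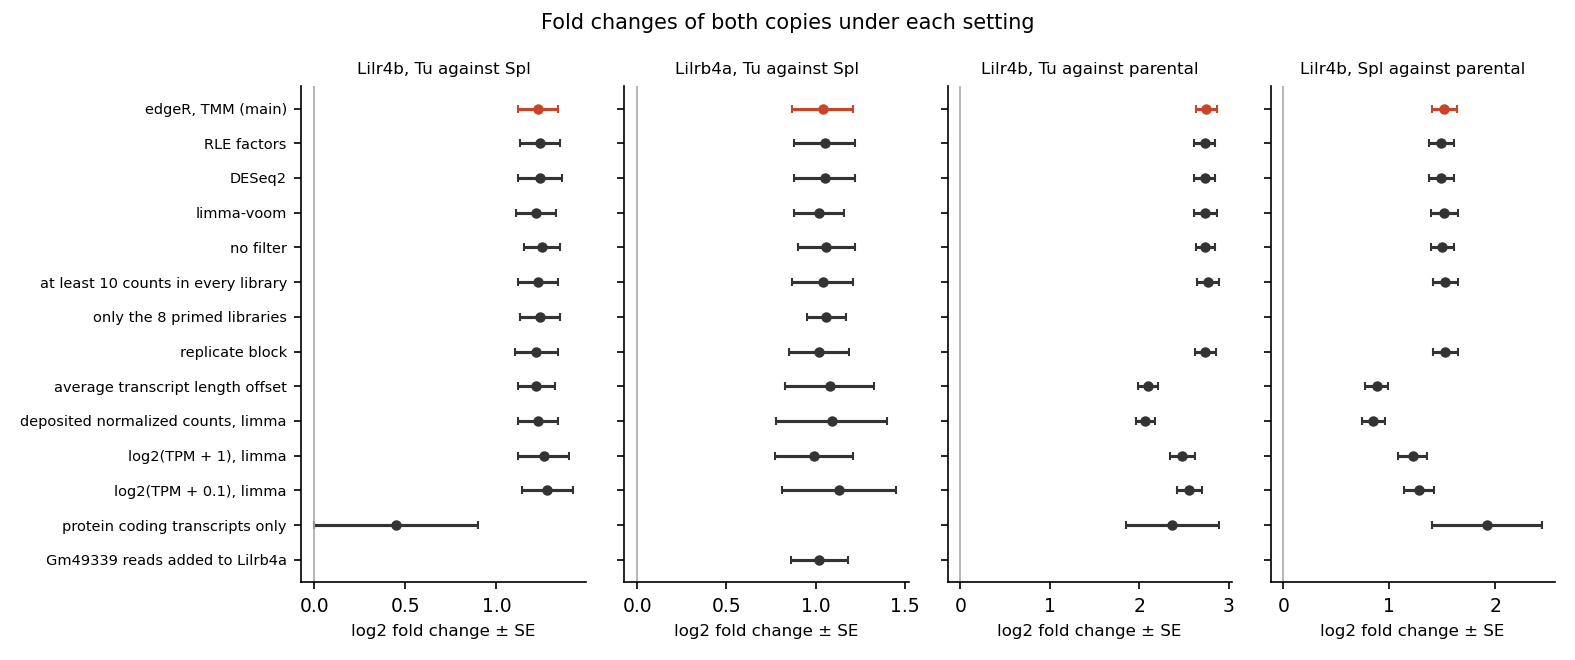
Log2 fold changes ± SE of *Lilr4b* and *Lilrb4a* under each setting, with the main analysis in red. The Tu-primed against Spl-primed values stay close to 1.23 for *Lilr4b* except with protein coding transcripts only (0.45), whereas the values against parental 4T1 are lower wherever transcript length is taken into account (2.10 and 0.88 with the length offset).

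Most reads assigned to *Lilr4b* in primed cells fell on transcripts that keep an intron. Retained intron transcripts took 75.8% ± 3.54 (SD, n = 4) of its reads in Tu-primed, 75.8% ± 2.38 in Spl-primed and 39.2% ± 4.58 in parental 4T1. The primed groups overlapped (difference -0.07 percentage points, exact permutation p = 1.0), and all their libraries lay above every parental library. Decay targets took 43.1% of the reads of *Lilr4b* in parental, 13.3% in Tu-primed and 9.37% in Spl-primed 4T1. Protein coding transcripts took 8.48%, 6.55% and 11.3%, in the same order, and the parental share varied between 0 and 14.9%. Both of these shares separated the primed groups without overlap, at the smallest p the exact permutation test can give (p = 0.0286, adjusted over 6 shares 0.0858), and so did not pass after adjustment. The retained intron share of all other reads moved in the same direction, with 3.37% ± 0.11 in Tu-primed, 3.35% ± 0.24 in Spl-primed and 2.13% ± 0.10 in parental libraries, and its part in the values of *Lilr4b* was not tested. The share of decay targets among all other reads, 2.38% ± 0.03, 2.41% ± 0.07 and 2.01% ± 0.09, was higher in primed than in parental libraries, opposite to the decay share of *Lilr4b*.

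As levels, the classes of *Lilr4b* differed in how they were arranged. Summed TPM of its retained intron transcripts was 44.2 ± 7.76 (SD, n = 4) in Tu-primed, 18.4 ± 2.32 in Spl-primed and 3.46 ± 0.43 in parental 4T1. Its decay targets were at 23.3 ± 2.35, 6.92 ± 1.76 and 7.75 ± 1.39 TPM, so that they were higher than in parental cells in every Tu-primed library, while the ranges of the other two groups overlapped. Its protein coding transcripts were at 7.82 ± 3.33, 6.09 ± 1.17 and 1.14 ± 0.86 TPM. The primed groups overlapped in this class, and when only coding transcripts were summed, the difference of *Lilr4b* between them was a log2 fold change of 0.45 (edgeR's quasi-likelihood test, adjusted p = 0.625). For *Lilrb4a*, retained intron transcripts took 91.7% of the reads in Tu-primed, 93.6% in Spl-primed and 63.1% in parental 4T1. Its coding transcripts were listed at 0 in 4 of 4 Spl-primed, 3 of 4 Tu-primed and 2 of 4 parental libraries, and their reads can also be assigned to *Gm49339*.

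**Figure D3:**
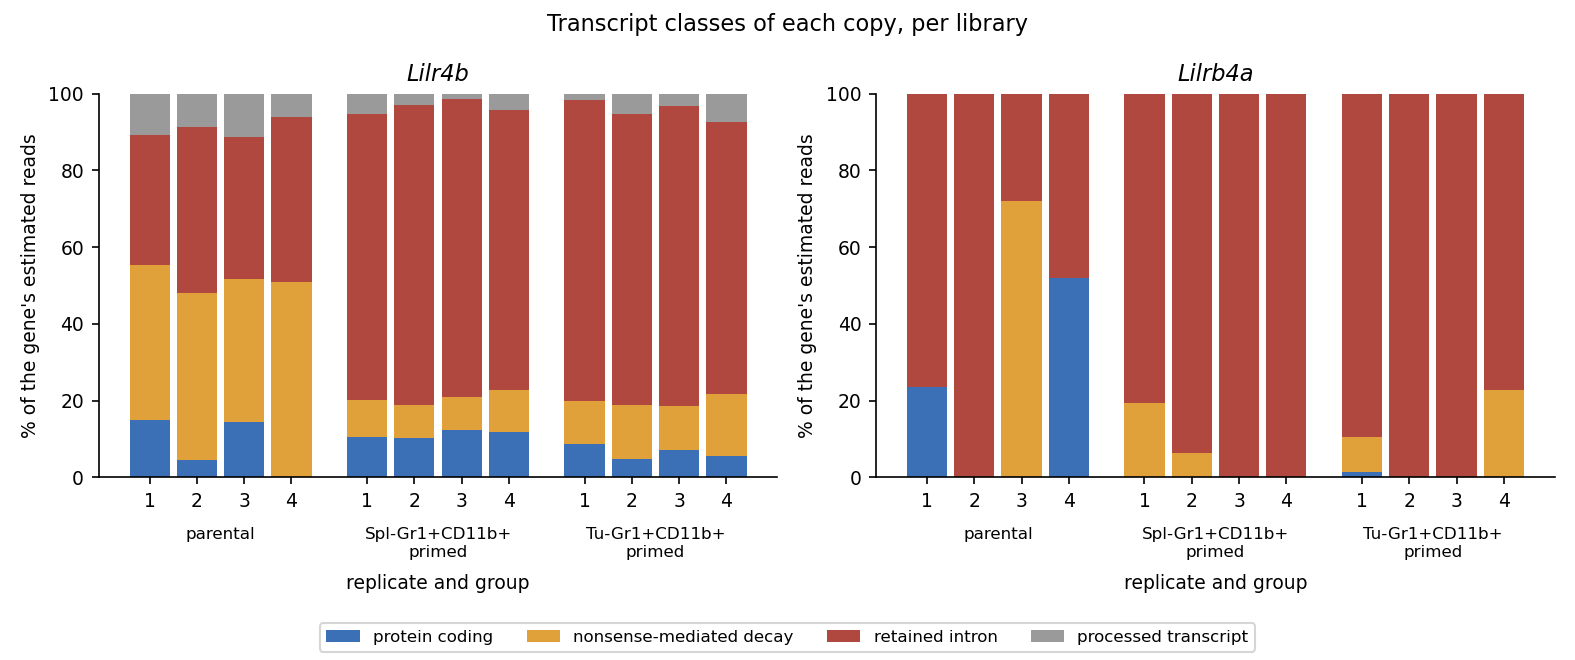
Share of the estimated reads of *Lilr4b* (left) and *Lilrb4a* (right) by annotated transcript class, 1 bar per library. In *Lilr4b*, the retained intron share is about 76% in every primed group and 39% in parental 4T1, while the classes of *Lilrb4a* vary widely between parental libraries that hold 28.1 to 62.8 reads.

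The introns of Lilr4b-201 were not kept alike. For each intron, the TPM of transcripts that hold it was compared with the TPM of transcripts that splice it at the same ends. Intron 3 was kept in 90.1% ± 1.74 (SD, n = 4) of this TPM in Tu-primed, 88.2% ± 3.81 in Spl-primed and 52.9% ± 8.42 in parental 4T1. This share leaves out transcripts that remove intron 3 together with exon 3, such as Lilr4b-204, with a mean of 23.2 TPM in Tu-primed 4T1. Over all transcripts, summed TPM within intron 3 was 29.1 in Tu-primed, 9.94 in Spl-primed and 1.19 in parental 4T1. In exon 4, which follows, it was 76.3, 30.3 and 13.3. Within intron 5 it was 28.1, 12.2 and 1.22, close to intron 3. Intron 5 was kept in 42.9%, 45.0% and 10.3%, and intron 4 in 22.3%, 20.8% and 3.00%, in the same order. Introns 1, 2 and 6 were kept in 22.2%, 44.3% and 24.8% in Tu-primed 4T1 and in 7.60%, 21.9% and 4.50% in parental 4T1. For introns 7 and 8, no annotated transcript keeps the whole intron. Some transcripts hold part of intron 7. In its later part, summed TPM was 23.2 in Tu-primed, 9.73 in Spl-primed and 3.30 in parental 4T1. Shortly before exon 8 it was 28.1, 12.9 and 3.82. The TPM of transcripts that splice intron 5 was 37.1 ± 2.45 in Tu-primed, 15.1 ± 3.29 in Spl-primed and 10.4 ± 2.40 in parental 4T1. TPM of transcripts that keep intron 5 was 28.1, 12.2 and 1.22. Not all spliced forms had this order of groups. Mean TPM of Lilr4b-204 was 6.92 in Spl-primed and 7.20 in parental 4T1. TPM of transcripts that splice intron 3 overlapped between Spl-primed (0.781 to 2.166) and parental libraries (0.69 to 1.252). In each of these 6 introns the kept share was higher in every primed library than in every parental library, as a description of the contrast by which the gene was chosen.

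**Figure D4:**
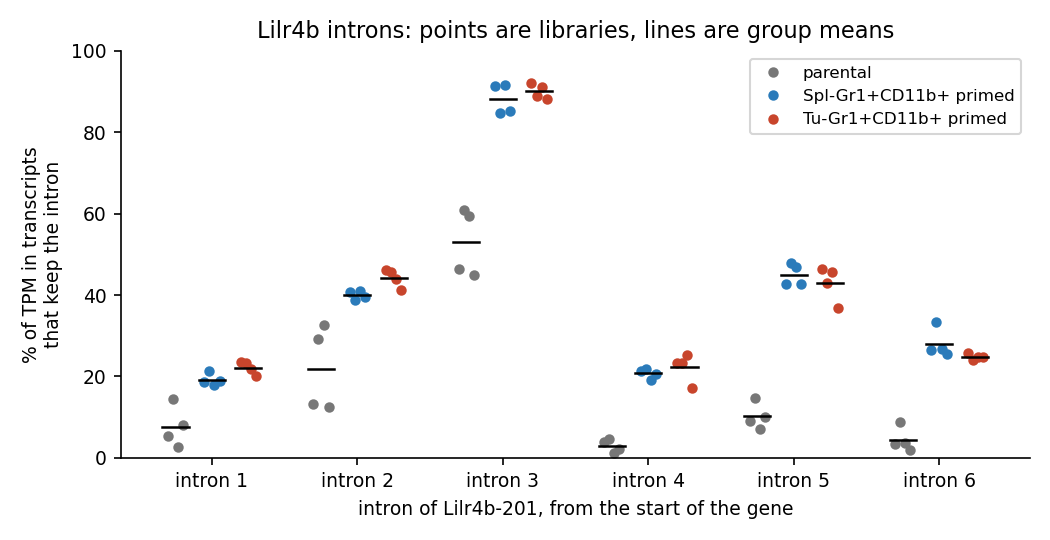
Share of TPM in transcripts that keep each of introns 1 to 6 of *Lilr4b*. Points are libraries and lines are means of 4 libraries per group. Only transcripts that splice an intron at the same ends are counted against those that keep it, so transcripts that skip exon 3 are left out. Counted in this way, intron 3 has the highest share in every group (52.9% in parental and 90.1% in Tu-primed 4T1). The parental points lie below the primed points at each intron.

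**Figure D5:**
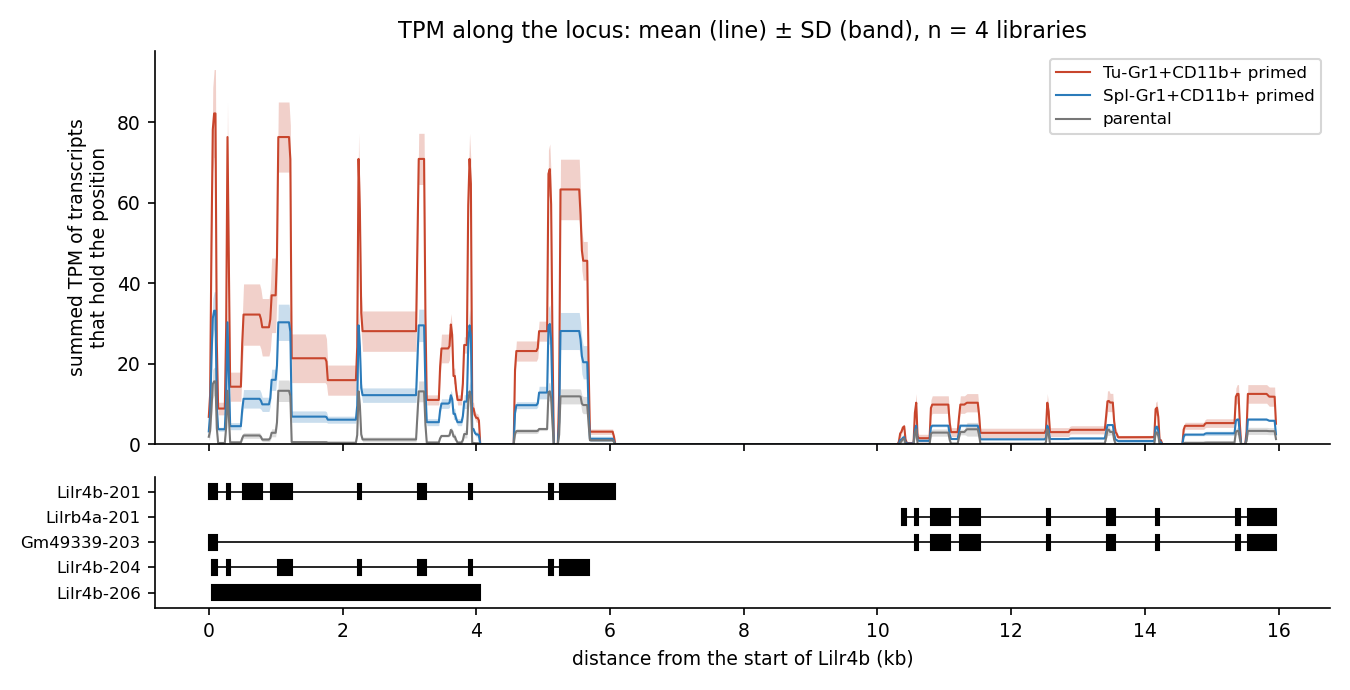
Summed TPM of all transcripts that hold a position, by distance from the start of *Lilr4b* in kilobases, as mean (line) and SD (band) of 4 libraries per group, over the exons of 5 transcripts (boxes). The covered stretches between the boxes of Lilr4b-201 lie in its introns, where the parental line lies below both primed lines, and the signal over *Lilrb4a*, to the right, is lower than over *Lilr4b*.

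Among single transcripts, 17 of the 27 members' transcripts had enough reads to be tested between the primed groups, of which 2 were higher and 0 lower, against 0.495% higher and 0.0707% lower of 38164 transcripts. Lilr4b-204, a decay target that skips exon 3 of Lilr4b-201, held 326.9, 379.0, 374.5 and 373.5 reads in Tu-primed 4T1. It held 119.0, 96.0, 99.2 and 154.8 in Spl-primed and 179.8, 137.8, 136.2 and 117.7 in parental 4T1. The Tu-primed libraries stood apart, and those of the other two groups overlapped. Its log2 fold change between the primed groups was 1.69 ± 0.17 (edgeR's quasi-likelihood test, adjusted p = 0.00193). Lilr4b-203, a retained intron transcript, had a mean of 349.5 ± 64.9 reads (SD, n = 4) in Tu-primed, 149.9 ± 19.0 in Spl-primed and 35.2 ± 11.03 in parental 4T1. Its log2 fold change between the primed groups was 1.27 ± 0.22 (edgeR's quasi-likelihood test, adjusted p = 0.0329), a call that was lost on leaving out any 1 of the 8 primed libraries or parental replicate 4 (1.16 to 1.33). The unspliced transcript Lilr4b-206 covers the first part of the gene in 1 exon and was listed at 502.9 ± 89.5, 203.1 ± 47.6 and 25.3 ± 19.9 reads, in the same order of groups, with a log2 fold change of 1.36 ± 0.41 between the primed groups that did not pass (edgeR's quasi-likelihood test, adjusted p = 0.294). Lilr4b-208, which holds retained introns, had 494.998, 552.276, 750.158 and 322.967 reads in Tu-primed 4T1. It had 225.087, 151.884, 157.428 and 242.55 reads in Spl-primed 4T1 and was listed at 0 in 3 of 4 parental libraries. Its log2 fold change of 1.52 ± 0.92 between the primed groups did not pass (edgeR's quasi-likelihood test, adjusted p = 0.849). The full-length coding transcript Lilr4b-201 had 97.8 ± 17.2 reads in Tu-primed, 47.2 ± 19.7 in Spl-primed and 19.7 ± 24.7 in parental 4T1, and was listed at 0 in 2 parental libraries. Its log2 fold change of 1.11 ± 1.12 between the primed groups had a standard error as large as itself. Of *Lilrb4a*, Lilrb4a-206 held the most reads in the primed groups, with 96.0 ± 14.6, 55.1 ± 7.13 and 9.70 ± 6.34, and a log2 fold change of 0.86 ± 0.46 between the primed groups (edgeR's quasi-likelihood test, adjusted p = 0.763). The full-length coding transcript with both ITIM, Lilrb4a-201, was listed at 0 in every library. The transcript Gm49339-203, which holds every word of Lilrb4a-201 and has the same coding sequence of 1008 bases, was detected with means of 122.6, 67.0 and 68.8 reads in Tu-primed, Spl-primed and parental 4T1, so these libraries do not show the ITIM-bearing coding sequence to be absent.

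The 4 other receptors of the leukocyte immunoglobulin-like and PIR family that were examined had few or no reads. *Lilra5*, *Lilra6* and *Pira2* had 0 reads, after rounding, in 12 of 12 libraries, *Pirb* had at most 6, and 0 of the 4 could be tested. Among 18 other paired immune receptors, 4 had enough reads. Of these, 3 were higher in Tu-primed than in Spl-primed 4T1 and 0 were lower (against 4.66% higher and 2.97% lower of all genes tested, and with a median log2 fold change of 0.76 against -0.01). *Sirpa*, the receptor for the do-not-eat-me signal CD47, had 493.2 ± 51.5 reads (SD, n = 4) in Tu-primed, 409.0 ± 40.3 in Spl-primed and 309.5 ± 29.8 in parental 4T1. It was higher between the primed groups by 0.32 ± 0.07 on the log2 scale (edgeR's quasi-likelihood test, adjusted p = 0.0085). *Pilrb1* and *Pilrb2*, activating paired receptors, were higher by 1.4 ± 0.25 (adjusted p = 0.0029) and 1.2 ± 0.33 (adjusted p = 0.04), at means of at most 34.5 reads, and as a similar pair they may exchange reads. The call of *Pilrb2* between the primed groups was lost on leaving out Tu-primed replicate 2, 3 or 4 or Spl-primed replicate 1, 2 or 3, with values between 1.08 and 1.24. Against parental 4T1, where 31.2% of genes tested were called higher and 28.0% lower in Tu-primed 4T1, the same 3 receptors were higher (*Sirpa* by 0.55 ± 0.07, adjusted p = 1.5e-05, *Pilrb1* by 1.53 ± 0.26, adjusted p = 0.00019, and *Pilrb2* by 2.28 ± 0.37, adjusted p = 0.00015). In Spl-primed against parental 4T1, where 25.7% were called higher and 22.5% lower, *Sirpa* (0.23 ± 0.07, adjusted p = 0.013) and *Pilrb2* (1.09 ± 0.41, adjusted p = 0.039) were higher. The latter call was lost on leaving out Tu-primed replicate 2, Spl-primed replicate 4 or parental replicate 2, 3 or 4, with values between 0.76 and 1.14. *Cd300lb* had 45.0 ± 8.6, 55.5 ± 17.6 and 54.2 ± 18.6 reads and passed in no comparison.

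Of the ligands of these receptors, *Itgb3*, the integrin β3 chain, followed the order of *Lilr4b*. It had 2260 ± 209.9 reads (SD, n = 4) in Tu-primed, 1418 ± 309.3 in Spl-primed and 775 ± 94.3 in parental 4T1. In edgeR's quasi-likelihood test it was higher by 0.73 ± 0.11 between the primed groups (adjusted p = 0.001), by 1.43 ± 0.12 in Tu-primed against parental 4T1 (adjusted p = 5.3e-07) and by 0.70 ± 0.12 in Spl-primed against parental 4T1 (adjusted p = 0.00031). Its partner *Itgav*, the αv chain, had 8614 ± 709.6, 8564 ± 1611 and 7222 ± 1593 reads and passed in no comparison. *Fn1*, which encodes fibronectin, was abundant at 65815 ± 6342 reads in Tu-primed 4T1 and was higher there than in parental 4T1 by 0.29 ± 0.11 (adjusted p = 0.035), a call lost on leaving out any of 6 single libraries (Tu-primed replicate 1, 3 or 4, or parental replicate 1, 3 or 4, with values between 0.27 and 0.31). *Apoe*, which encodes apolipoprotein E, was low, with 36.0 ± 8.6, 52.2 ± 15.2 and 17.0 ± 7.1 reads. It was higher than in parental cells by 0.97 ± 0.31 in Tu-primed (adjusted p = 0.015) and by 1.46 ± 0.30 in Spl-primed 4T1 (adjusted p = 0.0013), and its difference between the primed groups did not pass (-0.49 ± 0.28, adjusted p = 0.31).

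The signaling partners differed by small amounts, passed in no comparison or had at most 2 reads. *Ptpn6*, which encodes SHP-1, had 747 ± 53.2, 735.5 ± 47.2 and 588.8 ± 62.1 reads and was higher in Tu-primed than in parental 4T1 by 0.23 ± 0.07 (edgeR's quasi-likelihood test, adjusted p = 0.011). *Ptpn11*, which encodes SHP-2, was lower than in parental cells by a log2 fold change of -0.19 ± 0.07 in Tu-primed (adjusted p = 0.024, lost without Tu-primed replicate 2, with -0.17, or parental replicate 1, with -0.18) and of -0.22 ± 0.07 in Spl-primed 4T1 (adjusted p = 0.014). *Inpp5d*, which encodes SHIP, had 35.5 ± 9.7, 38.2 ± 8.1 and 39.0 ± 10.6 reads and passed in no comparison. *Lyn*, a kinase that phosphorylates ITIM, was lower in Tu-primed than in Spl-primed 4T1 by -0.27 ± 0.06 (adjusted p = 0.013, lost without Tu-primed replicate 3, with -0.24) and than in parental 4T1 by -0.19 ± 0.06 (adjusted p = 0.014). *Syk* had at most 1 read and *Fcer1g*, the adaptor of activating receptors, at most 2. Of the 8 of 10 ligands and partners that were tested, 1 was higher and 1 lower between the primed groups, 4 were higher and 2 lower in Tu-primed against parental 4T1, and 2 were higher and 1 lower in Spl-primed against parental 4T1. Of all genes tested, 4.66% were called higher and 2.97% lower in the first of these comparisons, 31.2% and 28.0% in the second and 25.7% and 22.5% in the last. Their median log2 fold changes were 0.05, 0.19 and 0.08, against -0.01, 0.02 and 0.02 over all genes tested.

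Because both receptors are known from myeloid cells, the markers of the cells in the other chamber were measured in the same libraries. In bulk RNA, fewer cells of a type and less RNA per cell cannot be told apart. Of 29 myeloid and granulocyte markers, 7 were at 0 in every library and 8 exceeded 10 reads in some library. The summed reads of the list lay between 777 and 922 in Tu-primed, 611 and 730 in Spl-primed and 533 and 775 in parental libraries. The 4 markers with the most reads over the 12 libraries were *Cd14*, *Cd68*, *Ltf* and *Cxcr2*, each present in parental 4T1 as well, and *S100a8* is named as the other marker called. *Ltf*, which encodes the granule protein lactoferrin, had 115.8 ± 25.9, 53.8 ± 7.3 and 46.2 ± 10.2 reads (SD, n = 4) in Tu-primed, Spl-primed and parental 4T1, and in edgeR's quasi-likelihood test it was higher in Tu-primed than in Spl-primed 4T1 by 1.16 ± 0.17 on the log2 scale (adjusted p = 0.00082). *S100a8*, which encodes a calcium-binding protein of neutrophils, had 78 ± 22, 42.8 ± 7.8 and 47.5 ± 9.7 reads and was higher in the same comparison by 0.93 ± 0.24 (adjusted p = 0.027), a call lost on leaving out Tu-primed replicate 1, 2 or 3 or Spl-primed replicate 1, 2 or 4 (0.75 to 0.91). The monocyte receptor *Cd14* had 447.8 ± 39.8, 373 ± 26.6 and 364 ± 75 reads and the macrophage protein *Cd68* 99.5 ± 13.7, 85.2 ± 11.5 and 80.5 ± 8.2. The neutrophil chemokine receptor *Cxcr2* had 65.8 ± 22.1, 61.8 ± 17.1 and 55 ± 12.2 reads, and none of *Cd14*, *Cd68* and *Cxcr2* passed in any comparison. Below the filter, *Ly6c2* had means of 13.5, 3 and 1.5 reads. *Tyrobp*, a signaling adaptor of myeloid cells, was at 0 throughout, *Ptprc* (CD45) had between 1 and 10 reads, and *Itgam* (CD11b) had at most 6. The 6 myeloid markers tested had a median log2 fold change of 0.44 between the primed groups, against -0.01 over all genes tested. Of these 6, *Ltf* and *S100a8* were thus called higher between the primed groups (2 of 6, against 4.66% of all genes tested). On leaving out single libraries this count lay between 1 and 4, with 1 without Tu-primed replicate 1, 2 or 3 and 4 without Spl-primed replicate 3 or parental replicate 2 or 4, and in Tu-primed against parental 4T1 it was 1 without Tu-primed replicate 1, 2 or 3 and 4 without Tu-primed replicate 4. Both were also called higher in Tu-primed against parental 4T1 (2 of 6, against 31.2%), *S100a8* by 0.62 ± 0.23 with a call lost on leaving out any of 6 single libraries (Tu-primed replicate 1, 2 or 3 or parental replicate 2, 3 or 4, with values between 0.44 and 0.61), and 0 of 6 in Spl-primed against parental 4T1 (25.7%), where edgeR at an unadjusted p under 0.05 and DESeq2 also called 0. The part of these markers in the levels of *Lilr4b* and *Lilrb4a* was not tested. The 8 mast cell markers summed to between 1 and 7 reads and the 6 lymphocyte markers to at most 6. Of the mammary epithelial markers, 0 of 8 passed between the primed groups in edgeR's quasi-likelihood test, against 5 at an unadjusted p under 0.05 and 1 in DESeq2. The background at the adjusted threshold was 4.66% higher and 2.97% lower. Their median log2 fold change between the primed groups was -0.17, toward lower values in Tu-primed 4T1, against -0.01 over all genes tested. Against parental 4T1, 1 was higher and 4 were lower in Tu-primed (background 31.2% and 28.0%), and 2 were higher and 3 lower in Spl-primed cells (background 25.7% and 22.5%).

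Around the locus, the other protein coding genes within 500 kb, apart from *Gm49339*, had few or no reads. *Sim1* had at most 2 reads, and *Fam162b*, *Gprc6a* and *Rfx6* were at 0 in every library. Of the pseudogenes there, *Gm48786* had between 25.2 and 114.6 reads and *Gm47626* between 62.9 and 217.8. *Gm40645*, annotated on the opposite strand across *Lilrb4a*, was not analysed here.

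The genes whose log2 CPM was most like that of *Lilr4b* over the 12 libraries were ranked by Pearson's r, as a description that also reflects the 3 groups these libraries form. They were *Gsap* (r = 0.995), *Golga5* (0.993), *Mbip* (0.993), *C1s1* (0.992), *Errfi1* (0.991), *Sh3bp2* (0.991), *Trim26* (0.990), *Nt5e* (0.988), *Dram2* (0.988) and *Calr4* (0.987). *C1s1*, a protease of the complement cascade, had means of 217.2, 69.2 and 20.8 reads in Tu-primed, Spl-primed and parental 4T1, and log2 fold changes of 1.71 between the primed groups and 3.27 and 1.56 against parental cells, each at least as large as that of *Lilr4b*. The other 9 had smaller changes at each step, between 0.23 (*Golga5*, a Golgi protein) and 0.71 (*Calr4*, of the calreticulin family) between the primed groups. *Nt5e*, which encodes the ectonucleotidase CD73, had means of 7635, 5703 and 3378 reads, and *Errfi1*, a feedback inhibitor of the EGF receptor, 10260, 8725 and 5919. For *Lilrb4a* the closest were *Fkbp14* (0.981), *Uhrf2* (0.977), *Aim2* (0.975), *Ccdc66* (0.974) and *Ccdc9b* (0.972), of which *Aim2*, a sensor of cytosolic DNA, had 47.0, 28.8 and 13.2 reads. *Lilr4b* and *Lilrb4a* themselves had r = 0.972, which ranked *Lilrb4a* 44th of 12554 genes by likeness to *Lilr4b*, and 651 genes (5.19%) had r over 0.9.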

How the data were processed

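RNA of 12 libraries in 3 groups of 4 was prepared with a stranded TruSeq protocol. Per the submitters' processing notes, reads were trimmed with Trimmomatic 0.39, checked with FastQC and quantified with Salmon 1.4.0 on GRCm38 (mm10). For each library the authors deposited estimated counts per transcript, not normalized, and TPM values, scaled for effective length and library size. The authors also deposited, for all libraries together, gene-level signal values described as normalized counts, whose method is not given in the sources used here. How the authors divided multiply matching reads follows from the quantification and limits both genes.

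Transcripts were assigned to genes with GENCODE M21 (116021 of 117081 matched, leaving 0.326% to 0.419% of reads per library unassigned), and estimated counts were summed and rounded. edgeR 4.0.16 in R 4.3.3 was used with filterByExpr, TMM factors and the quasi-likelihood test in 1 fit of 12 libraries with group as the only term, and Benjamini-Hochberg adjustment per comparison (threshold 0.05). Transcripts were fitted in the same way. Standard errors were derived from the F statistic. Log2 CPM used a prior count of 2. Shares were compared by two-sided exact permutation tests in SciPy 1.17.1. Sequences were aligned with Biopython 1.88, and figures were drawn with matplotlib 3.10.9. The fits were tested on simulated data.

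Members, gene lists and tests were chosen with earlier results of these data known. The genes named were the members and their transcripts, family genes over 10 reads, all ligands and signaling partners, coding neighbors within 500 kb that passed the filter, the 10 and 5 genes most like *Lilr4b* and *Lilrb4a*, and at most 4 genes of other lists, those with the most reads. Genes named beyond this rule (*Pirb*, *Lilra5*, *Lilra6*, *Pira2*, *Tyrobp*, *Ptprc*, *Itgam*, *Ly6c2*, *S100a8* and the genes around the locus) were chosen after their values were seen. Alternatives were RLE factors, DESeq2 1.42.0, limma-voom and limma 3.58.1 on log2 TPM (pseudocounts 1 and 0.1), no filter, a floor of 10 counts in all libraries, the 8 primed libraries alone, a replicate term, a transcript length offset, coding transcripts only and each library left out. Adding *Gm49339* to *Lilrb4a* and limma on log2 of the deposited normalized counts + 1 were chosen after the data had been seen.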

Additional observations from a re-analysis of the deposited data

Results flagged for a closer look

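In Spl-primed 4T1, 1 library stood away from the other 3 in the share of TPM that keeps intron 6 of *Lilr4b*. Replicate 2 had 33.27%, against 26.53%, 26.84% and 25.55% in the other replicates, and the gap was 0.833 of the whole range, just over the critical value for 4 samples. Of 66 groups of values examined in this way this was the only 1. The groups of introns 7 and 8, where the share was 0 in every library, could not be marked. Several others hold the same reads on different scales. Chance marks about 1 in 20 for a single group of values that vary, which gives no expected number for these 66.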

How the results depend on the processing

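Of 425 single-gene values and 434 values of the main comparisons recomputed under the alternatives, 378 and 378 were rated the same. Tested values had to keep their direction and their side of the threshold. Values without a test had to stay within the spread between replicates, and counts of genes or transcripts near the main count. For the other leukocyte immunoglobulin-like and PIR receptors, 0 of 4 could be tested. Their counts were 0 in 15 of 15 alternatives per comparison and could not differ. Between the primed groups, the coding transcripts alone gave a log2 fold change of 0.45 for *Lilr4b* (adjusted p = 0.625) and 0.46 for both copies summed (adjusted p = 0.458), both without a call, while *Lilrb4a* could not be fitted with coding transcripts alone. For *Lilrb4a*, limma on log2(TPM + 0.1) gave 1.13 and on the deposited normalized counts 1.09, without a call. The adjusted p of *Lilr4b* lay between 9.13e-24 and 0.625 over its alternatives. On leaving out each library in turn, *Lilr4b* lay between 1.17 and 1.32, *Lilrb4a* between 0.97 and 1.12, both summed between 1.15 and 1.30, and the share of *Lilrb4a* between -1.72 and -0.74 percentage points. The share difference turned to 0.42 percentage points with coding transcripts only, where few reads of *Lilrb4a* remained.

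Against parental 4T1, *Lilr4b* in Tu-primed cells moved to 2.37 with coding transcripts only, 2.10 with the length offset, 2.48 with log2(TPM + 1) and 2.07 with the deposited normalized counts. In Spl-primed cells it moved to 1.92, 0.88, 1.22 and 0.85, and to 1.28 with log2(TPM + 0.1). *Lilrb4a* in Tu-primed cells moved to 2.08 with the length offset, 1.99 with log2(TPM + 1), 1.96 with *Gm49339* added and 2.10 with the deposited normalized counts. In Spl-primed cells it moved to 1.00, 1.00, 0.94 and 1.01, and to 1.39 with log2(TPM + 0.1). On log2(TPM + 0.1), the median over all genes was 0.48 in Tu-primed and 0.41 in Spl-primed cells. The cause of the other shifts was not tested.

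The number of member transcripts called higher between the primed groups fell from 2 to 1 without a filter, with the replicate block and with log2(TPM + 0.1), and lay between 1 and 3 with each library left out. The number of other paired receptors called in Spl-primed against parental 4T1 was 1 with the replicate block and between 1 and 2 with each library left out, and that of ligands and partners between the primed groups was between 1 and 2. On leaving out each library, between 1 and 4 myeloid markers were called between the primed groups and likewise in Tu-primed against parental 4T1. Of the mammary epithelial markers, DESeq2 called 1 between the primed groups and leaving out each library called between 0 and 3. Libraries with the same replicate number did not deviate together (r between -0.164 and 0.148 over 12 pairs, with 2 over 0.1), and 3 of 12 libraries correlated best with their own number, so the numbers were not taken as pairs. The replicate block gave 1.22 for *Lilr4b*, 1.02 for *Lilrb4a* and 1.2 for both summed, all called, and ended the call of *Pilrb2* between the primed groups (1.22, adjusted p = 0.0586) and in Spl-primed against parental 4T1 (1.05). Depth limits the parental values of *Lilrb4a*, which rest on 28.1 to 62.8 reads, and for its coding transcripts depth and the assignment of shared reads to *Gm49339* were not told apart.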
